A study of Mus musculus with 10 samples.

Results

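The Cyp4 fatty acid hydroxylases described here are 10 mouse cytochrome P450 genes, taken by symbol, of the 18869 gene identifiers in a liver expression table. They comprise 6 Cyp4a genes (Cyp4a10, Cyp4a12a, Cyp4a12b, Cyp4a14, Cyp4a31, Cyp4a32), 3 Cyp4f genes (Cyp4f13, Cyp4f14, Cyp4f15) and Cyp4v3. Livers of C57BL/6 mice labelled as having NRF2 activated specifically in the liver (Nrf2Act-hep, 5 libraries) were set against livers of wild-type C57BL/6 mice (WT, 5 libraries). All mice were 6 weeks old, ate regular chow and had fasted for 15 h when the liver was frozen, so no fed liver was measured. The sample titles also carry a letter, M on 3 Nrf2Act-hep and 2 WT libraries and F on 2 Nrf2Act-hep and 3 WT libraries. The labels give neither the means by which NRF2 was activated nor whether every library is a separate mouse. P-values therefore speak only to the variation among these libraries, part of which could be technical.

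Enzymes of the CYP4 family add a hydroxyl group to the terminal (omega) carbon of a fatty acid, the step that opens omega-oxidation to dicarboxylic acids. In mouse liver Cyp4a10 and Cyp4a14 are textbook targets of PPARA, the nuclear receptor that senses fatty acids during fasting. Cyp4a12a makes 20-HETE from arachidonic acid and is known as a male-biased gene, while CYP4F enzymes inactivate leukotriene B4 and other eicosanoids.

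Libraries were made with a 3′ mRNA kit, which gives a single short read close to the poly(A) tail of a transcript whatever its length. Levels of different genes therefore need no correction for length. They still depend on which 3′ ends are annotated and on reads shared between near-identical genes. The authors deposited CPM, each library's reads scaled to a fixed total, and the reads recovered from them numbered 2167528 to 2806670 per Nrf2Act-hep library and 1267745 to 2287727 per WT library. Levels below are CPM after TMM scaling, which corrects each library for its overall composition, with means ± SD over libraries. Nqo1, a standard NRF2 target, stood at 18.9 to 47.7 CPM in Nrf2Act-hep libraries against 1.16 to 5.73 CPM in WT libraries. Xist was at 0 in all 5 M libraries and at 331.9 to 560.8 CPM in all 5 F libraries. Ddx3y, on the Y chromosome, was at 100.7 to 117.2 CPM in M libraries and at most 0.41 CPM in F libraries.

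All 10 genes encode the P450 signature around the cysteine that holds the haem iron. The stretches are printed to show how little separates the Cyp4a genes there, with the cysteine codon in capitals. They are coding sequence, 5′ to 3′, from GENCODE transcripts on GRCm38.
Cyp4a10: ttctcaggaggagccaggaacTGCattggg
Cyp4a31: ttctcaggaggagccaggaacTGCattggg
Cyp4a32: ttctcaggaggagccaggaacTGCattggg
Cyp4a12a: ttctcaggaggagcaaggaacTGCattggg
Cyp4a12b: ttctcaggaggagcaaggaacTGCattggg
Cyp4a14: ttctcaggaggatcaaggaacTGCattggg
Cyp4f13: ttctcagcggggaccaggaacTGCatagga
Cyp4f14: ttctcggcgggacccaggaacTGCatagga
Cyp4f15: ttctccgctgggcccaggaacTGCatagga
Cyp4v3: ttttctgctggacctcgaaacTGTattggt

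Cyp4a10, Cyp4a31 and Cyp4a32 carry the same letters in this window, as do Cyp4a12a and Cyp4a12b. Over the whole coding sequence Cyp4a12a and Cyp4a12b were 98.49% identical and differed at 23 of 1527 positions. The stretch of 90 coding bases with the most differences, bases 676 to 765 counted from the A of the start codon, is printed. It lies upstream of annotated 3′ untranslated regions of 813 bases (Cyp4a12a) and 809 bases (Cyp4a12b). Reads close to the poly(A) tail do not reach it, so it does not show how the counted reads were split. The 7 differing bases are in capitals.
Cyp4a12a: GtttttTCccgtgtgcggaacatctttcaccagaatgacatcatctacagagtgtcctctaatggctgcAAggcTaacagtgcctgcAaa
Cyp4a12b: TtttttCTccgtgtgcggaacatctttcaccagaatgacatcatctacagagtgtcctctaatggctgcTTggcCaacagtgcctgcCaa

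Cyp4a10 and Cyp4a31 were 96.6% identical in coding sequence, Cyp4a10 and Cyp4a32 97.19%, and Cyp4a31 and Cyp4a32 96.01%. Bases 190 to 279 hold 13 positions at which the 3 are not all alike, again in capitals.
Cyp4a10: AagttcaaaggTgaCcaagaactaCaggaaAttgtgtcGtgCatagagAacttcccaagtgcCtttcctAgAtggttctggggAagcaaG
Cyp4a31: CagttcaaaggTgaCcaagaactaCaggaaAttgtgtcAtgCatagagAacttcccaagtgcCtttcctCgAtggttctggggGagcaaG
Cyp4a32: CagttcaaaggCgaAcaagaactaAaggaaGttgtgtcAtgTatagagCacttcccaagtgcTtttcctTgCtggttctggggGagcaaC

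Likeness near the 3′ end, where the tags lie, decides how far counts can be kept apart. In the last 500 bases of the annotated transcripts, 139 of the 426 windows of 75 bases (32.63%) were identical between Cyp4a12a and Cyp4a12b, so their split is uncertain and their sum is given as well. Cyp4a32 shared 235 of 426 windows (55.16%) with Cyp4a10 or Cyp4a31, and its annotated transcript ends with the stop codon. Cyp4a10 and Cyp4a31 shared 2 of 426 windows with each other, although their last 300 bases were 92.36% identical. Cyp4a14, Cyp4f13, Cyp4f14, Cyp4f15 and Cyp4v3 shared none with another gene.

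The 6 Cyp4a genes lie in one cluster on chromosome 4 of GRCm38. Cyp4a12a occupies chr4:115299046-115332815 and Cyp4a12b chr4:115411624-115439034, both on the plus strand. Cyp4a14 is on the minus strand at chr4:115486200-115496142, followed on the plus strand by Cyp4a10 (chr4:115518264-115533649), Cyp4a31 (chr4:115563649-115579015) and Cyp4a32 (chr4:115600969-115621602). Cyp4f15 (chr17:32685627-32703352, plus strand), Cyp4f14 (chr17:32905070-32917342, minus strand) and Cyp4f13 (chr17:32924688-32947402, minus strand) share a second cluster, and Cyp4v3 lies alone among the 10 at chr8:45304944-45333216 on the minus strand.

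Nearly all Cyp4 reads came from Cyp4a10 and Cyp4a14. The 10 genes together took 0.644% to 1.19% of all reads in Nrf2Act-hep libraries and 0.812% to 1.09% in WT libraries. By mean level over the 10 libraries, Cyp4a10 ranked 15 and Cyp4a14 ranked 17 among all genes. Cyp4a10 averaged 4870 CPM and Cyp4a14 4252 CPM, and Cyp4a10 was the higher of the pair in 9 of 10 libraries. Every other member was at least 22.4 times lower in its mean than Cyp4a14.

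Cyp4a12a (189.4 CPM), Cyp4v3 (183.3 CPM) and Cyp4a31 (157.2 CPM) came next in mean level. That mean of Cyp4a12a pools 374.9 CPM in M and 3.95 CPM in F libraries, so its place in the order differs by letter. Neighbours there did not separate, since Cyp4a12a exceeded Cyp4v3 in 4 of 10 libraries and Cyp4v3 exceeded Cyp4a31 in 6 of 10. Cyp4f15 (54.3 CPM), Cyp4a12b (42.3 CPM) and Cyp4f14 (38.0 CPM) overlapped in the same way, with Cyp4f15 above Cyp4a12b in 7 libraries and Cyp4a12b above Cyp4f14 in 4. Cyp4f14 was above Cyp4f13 (19.8 CPM), and Cyp4f13 above Cyp4a32 (2.91 CPM), in all 10 libraries.

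**Figure D1:**
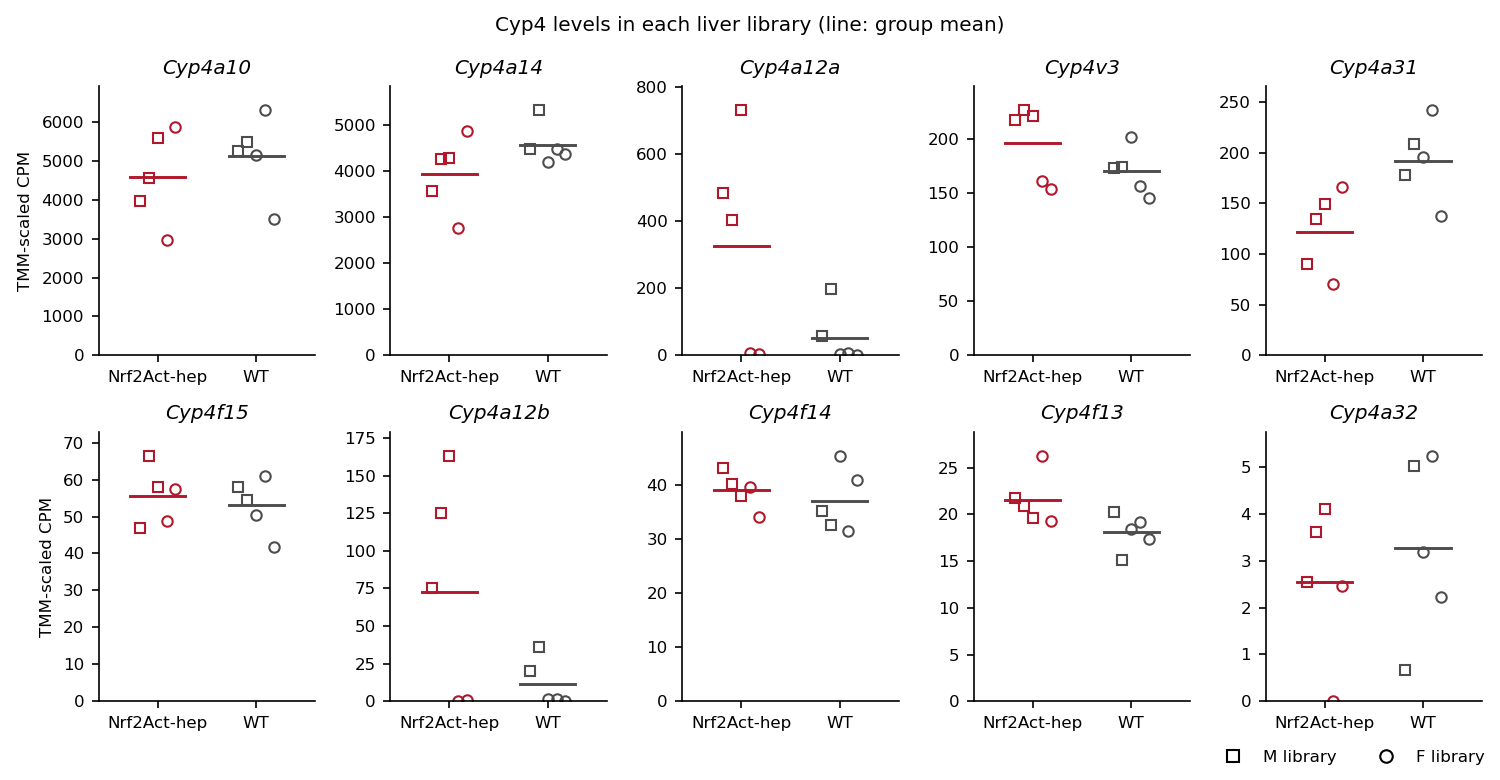
Level of each of the 10 genes in TMM-scaled CPM (linear axes from 0), with one symbol per library, squares for M and circles for F, and a line at the group mean. Nrf2Act-hep and WT libraries overlap for all 10 genes. Cyp4a12a and Cyp4a12b are high only in squares, with the 3 Nrf2Act-hep squares above both WT squares. In M libraries 32.5% of tested genes show no overlap between genotypes.

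Of the 10 genes, 9 passed the filter on low values (at least 10 reads at the median depth, or 4.50 CPM, in at least 5 libraries) and were tested together with all other genes. None of the 9 passed the threshold between Nrf2Act-hep and WT livers, a Benjamini-Hochberg adjusted p below 0.05 by limma with the letter as covariate. At an unadjusted p below 0.05, 2 of the 9 passed, as did 1308 of all 8075 tested genes. At the adjusted threshold 375 of 8075 genes (4.64%) changed, 225 higher and 150 lower in Nrf2Act-hep livers, and 384 higher and 80 lower when the deposited CPM were left unscaled. The median log2 fold change of the 9 was 0.08 and that of all tested genes was 0.00. The library values of the genotypes overlapped for all 10 members, while 5.14% of tested genes showed no overlap.

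Cyp4a10, the most abundant member, had 3964, 4558, 5607, 2968 and 5870 CPM in the 5 Nrf2Act-hep libraries. The 5 WT libraries had 5264, 5492, 5161, 6307 and 3508 CPM. The ranges overlapped widely, and the lowest library of each genotype was an F library. The log2 fold change was -0.21 ± 0.19 (SE; limma adjusted p = 0.636), with a 95% interval of 0.659 to 1.13 for the fold.

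Cyp4a14, its neighbour on the opposite strand, had 3558, 4259, 4268, 2750 and 4857 CPM in Nrf2Act-hep libraries. In WT libraries it had 4483, 5309, 4193, 4466 and 4374 CPM. Nrf2Act-hep libraries spread more widely and included the lowest value of all. The log2 fold change was -0.26 ± 0.15 (limma adjusted p = 0.384), and the fold had a 95% interval of 0.675 to 1.03.

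Cyp4a31 had the lowest estimate among the 9 but did not pass the threshold. Its level was 90.3, 135.0, 149.5, 70.6 and 165.7 CPM in Nrf2Act-hep libraries. WT libraries had 177.8, 208.4, 195.6, 241.8 and 137.6 CPM. All but one WT library, replicate 5, stood above every Nrf2Act-hep library. The means were 122.2 ± 40.3 CPM in Nrf2Act-hep and 192.2 ± 38.5 CPM in WT livers (SD, n = 5 each), which is -0.72 ± 0.24 on the log2 scale (limma adjusted p = 0.143). Without Nrf2Act-hep replicate 10, the highest of its genotype, the log2 fold change was -0.94 and passed the threshold (limma adjusted p = 0.0218). Without Nrf2Act-hep replicate 9, the lowest, it was -0.47 (limma adjusted p = 0.205). No other single omission passed. The estimate was -0.65 in M and -0.78 in F libraries, and the 95% interval of their difference was -0.99 to 1.25.

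Within single libraries Cyp4a31 varied with its near-twin Cyp4a10 but made up a smaller part of the pair in Nrf2Act-hep livers. For every 100 Cyp4a10 reads there were 2.28, 2.96, 2.67, 2.38 and 2.82 Cyp4a31 reads in Nrf2Act-hep libraries. In WT libraries there were 3.38, 3.80, 3.79, 3.83 and 3.92. The genotypes did not overlap, and the spread within each was small. A ratio inside a library does not depend on the scaling between libraries, but it shows unequal change and not which of the pair changed. Reads assigned to the wrong gene of the pair could alter both the ratio and the shared variation, which was not tested.

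The mean ratio was 2.62 ± 0.29 in Nrf2Act-hep and 3.74 ± 0.21 in WT libraries (SD, n = 5 each), a log2 difference of -0.52. An exact two-sided permutation of genotype within each letter gave p = 0.01, the smallest that its 100 arrangements allow, and p = 0.03 after Benjamini-Hochberg adjustment over 3 ratios. The ratios were chosen after the values were seen. Of the other 8074 tested genes, 2.23% had a ratio to Cyp4a10 that did not overlap between genotypes, and 0.173% (14 genes, Cyp4a31 among them) had one that was lower in every Nrf2Act-hep library.

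The ratio of Cyp4a14 to Cyp4a10 did not differ beyond the spread between libraries. It was 86.9 ± 7.37 Cyp4a14 reads per 100 Cyp4a10 reads in Nrf2Act-hep and 91.7 ± 20.6 in WT libraries, and the exact permutation test gave p = 0.79 (adjusted p = 0.79). For Cyp4a31 per 100 Cyp4a14 reads the means were 3.04 ± 0.46 in Nrf2Act-hep and 4.22 ± 0.86 in WT libraries, with overlap through WT replicate 5 (exact permutation p = 0.04, adjusted p = 0.06).

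**Figure D2:**
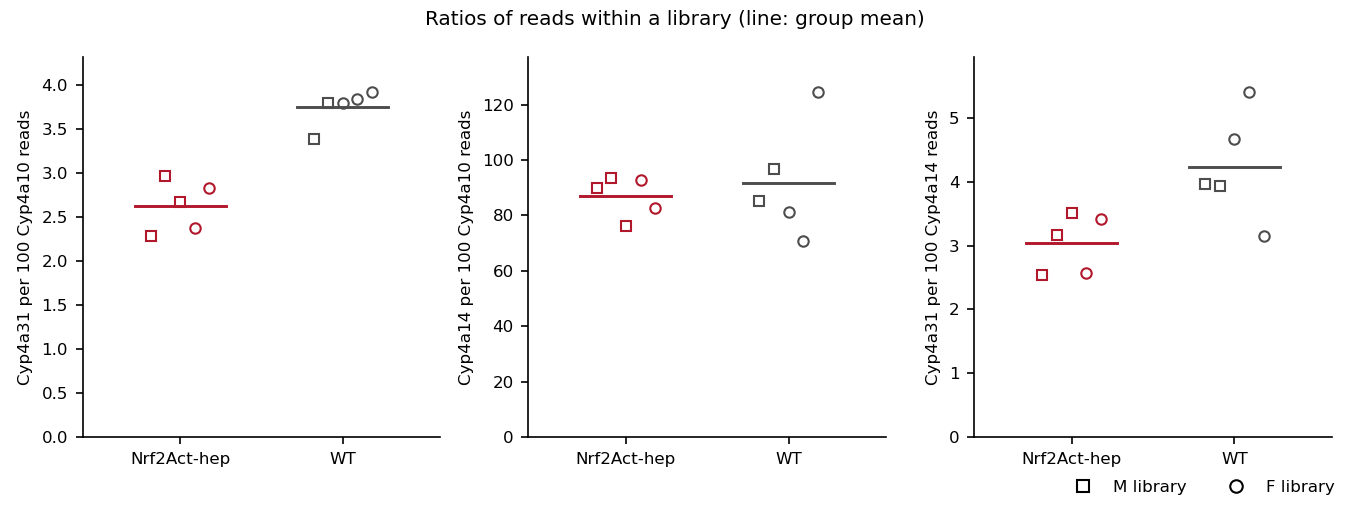
Reads of one Cyp4a gene per 100 reads of another in the same library (linear axes from 0), with squares for M and circles for F libraries and a line at the group mean. Only the first panel, Cyp4a31 per 100 Cyp4a10 reads, has no overlap: Nrf2Act-hep libraries lie between 2.28 and 2.96 and WT libraries between 3.38 and 3.92.

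The levels of these 3 genes also varied together from library to library. Over the 10 libraries, on the log2(CPM + 1) scale, Cyp4a10 and Cyp4a31 had Pearson's r = 0.864 (permutation p = 0.00168) and Spearman's rho = 0.77 (p = 0.0127). Cyp4a14 had r = 0.774 with Cyp4a10 (p = 0.00946) and rho = 0.685 (p = 0.0348), and r = 0.862 with Cyp4a31 (p = 0.00215) and rho = 0.697 (p = 0.0309), all by permutation. Adjusted over the 3 relations, the p-values for r were 0.00322, 0.00946 and 0.00322 in that order, and all 3 for rho were 0.0348. Without the 2 libraries farthest from the median of Cyp4a10, its r was 0.86 with Cyp4a31 and 0.711 with Cyp4a14. Without the 2 libraries farthest from the median of Cyp4a14, its r with Cyp4a31 was 0.697. These relations were chosen after the values were seen, and how often other pairs of genes reach such an r was not computed. The permutations kept neither genotype nor letter fixed. The libraries share scaling and genotype, and no r was computed within the 5 libraries of a genotype.

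Counts of Cyp4a32 were close to the limit of detection, and it was not tested across all genes. It had 6, 9, 9, 0 and 6 reads in Nrf2Act-hep libraries and 1, 6, 5, 9 and 5 reads in WT libraries. Its level was 2.55 ± 1.59 CPM in Nrf2Act-hep and 3.27 ± 1.92 CPM in WT livers (SD, n = 5 each), where 3 reads equal 1.07 to 1.38 CPM in a Nrf2Act-hep and 1.31 to 2.37 CPM in a WT library. An exact two-sided permutation of genotype within each letter gave p = 0.56, the smallest possible being 0.01, so no difference was detectable with these few reads. Its annotated transcript ends with the stop codon and shared 55.16% of windows with Cyp4a10 or Cyp4a31. The part of either in its low counts was not tested.

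Cyp4a12a and Cyp4a12b were plentiful in M libraries, nearly absent from F libraries, and among M libraries higher in the Nrf2Act-hep ones. Only Cyp4a12b passed the threshold in that last comparison. In M libraries Cyp4a12a had 485.0, 404.6 and 729.9 CPM in Nrf2Act-hep livers, against 56.8 and 198.4 CPM in WT livers. In F libraries it had 6.05 and 3.69 CPM in Nrf2Act-hep livers, against 3.19, 6.39 and 0.45 CPM in WT livers. Every M library stood above every F library, and the lowest M library of Nrf2Act-hep mice was above the highest of WT mice. With so few M libraries, 32.5% of tested genes likewise showed no overlap between genotypes there.

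Cyp4a12b followed the same order at a lower level. In M libraries it had 75.4, 125.4 and 162.8 CPM in Nrf2Act-hep livers, against 20.3 and 36.0 CPM in WT livers. In F libraries it was found with 0 and 2 reads in Nrf2Act-hep livers and with 2, 2 and 0 reads in WT livers, which is below 3 reads in each. The M libraries again stood above all F libraries, and the Nrf2Act-hep M libraries above both WT M libraries. The latter is again a separation that 32.5% of tested genes showed in one direction or the other.

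Between M and F libraries, with genotype as covariate, Cyp4a12a differed by a log2 of 5.71 ± 0.61 (limma adjusted p = 0.00508) and Cyp4a12b by 5.24 ± 0.51 (limma adjusted p = 0.000733). These were the only calls among the 9 tested members, where 95 of 8075 genes (1.18%) were called and 0.594% were higher in M. Cyp4a12b passed the filter through its 5 M libraries alone, so it had to differ by letter. Fold sizes against levels this near to 0 depend on the 1 CPM added before taking logs. Cyp4v3 had 202.7 ± 26.7 CPM in M and 164.0 ± 21.9 CPM in F libraries (SD, n = 5 each), a log2 difference of 0.28 ± 0.12 that did not pass (limma adjusted p = 0.45).

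**Figure D3:**
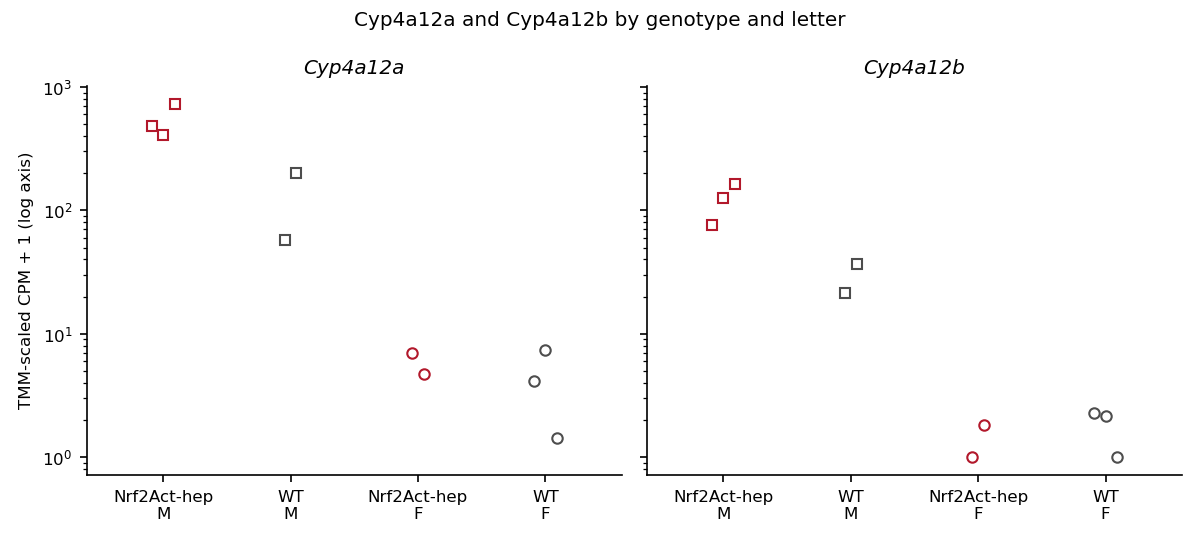
TMM-scaled CPM + 1 of Cyp4a12a and Cyp4a12b on a log axis, one symbol per library, by genotype and letter. For each gene the 3 Nrf2Act-hep M libraries lie highest, the 2 WT M libraries next and the 5 F libraries lowest. In M libraries 32.5% of tested genes show no overlap between genotypes.

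Among M libraries Cyp4a12b rose in Nrf2Act-hep livers, to 121.2 ± 43.8 CPM (SD, n = 3) against 28.1 ± 11.1 CPM in WT livers (SD, n = 2). The log2 fold change was 2.05 ± 0.41 (limma adjusted p = 0.00709), a 4.15-fold rise with a 95% interval of 2.29 to 7.54. That SE, interval and p come from a fit to all 10 libraries with a shared spread. The F libraries, with at most 2 Cyp4a12b reads each, help to set that spread. Cyp4a12b was the only call among the 9 tested members in this contrast, where 197 of 8075 genes (2.44%) were called and 1.75% were higher. The call was lost without WT replicate 1 (log2 fold change 1.65, limma adjusted p = 0.135), which leaves a lone WT M library assumed to vary like the other groups. It was also lost with a pseudocount of 0.5 (limma adjusted p = 0.077).

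Cyp4a12a had a fold change in M libraries that did not pass the threshold. It averaged 539.8 ± 169.4 CPM in Nrf2Act-hep (SD, n = 3) and 127.6 ± 100.1 CPM in WT livers (SD, n = 2), and its log2 fold change was 2.29 ± 0.81 (limma adjusted p = 0.281). That value depended on the WT M libraries: it was 1.39 without WT replicate 1 (limma adjusted p = 0.588) and 3.18 without WT replicate 2 (limma adjusted p = 0.218). The summed reads of the pair gave 2.25 (limma adjusted p = 0.303), and their summed level was 661.0 ± 201.2 CPM in Nrf2Act-hep and 155.7 ± 111.2 CPM in WT M libraries.

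In F libraries neither gene passed the threshold, with log2 fold changes of 0.70 ± 0.81 for Cyp4a12a (limma adjusted p = 0.825) and -0.33 ± 0.41 for Cyp4a12b (limma adjusted p = 0.829), and 2.08% of tested genes were called there. The difference between the M and F effects was 2.39 ± 0.58 for Cyp4a12b (limma adjusted p = 0.214) and 1.59 ± 1.14 for Cyp4a12a (limma adjusted p = 0.838). Neither passed, and 0.0248% of tested genes did (2 genes). An effect seen in M libraries was therefore not shown to differ from that in F libraries. Over all 10 libraries the genotype estimates were 1.49 ± 0.61 for Cyp4a12a (limma adjusted p = 0.286) and 0.86 ± 0.51 for Cyp4a12b (limma adjusted p = 0.457), and edgeR's quasi-likelihood test on the recovered reads called Cyp4a12b (log2 fold change 1.99, adjusted p = 0.0256).

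The split of reads between the pair varied among M libraries and overlapped between genotypes. Cyp4a12a had 6.44, 3.23 and 4.48 reads per Cyp4a12b read in Nrf2Act-hep libraries and 2.80 and 5.51 in WT libraries. As a share of the pair's reads Cyp4a12a ranged from 76.3% (exact 95% interval 74.0% to 78.6%) to 86.6% (84.6% to 88.3%) in Nrf2Act-hep M libraries. In WT M libraries it was 73.7% (64.6% to 81.5%) and 84.6% (79.9% to 88.7%). These intervals cover counting error only.

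The makeup of the family in M livers is given as values, with no test of the shares. Cyp4a12a and Cyp4a12b took 6.63% ± 1.27 of all member reads in Nrf2Act-hep (SD, n = 3) and 1.39% ± 0.91 in WT M libraries (SD, n = 2), without overlap. Cyp4a10 and Cyp4a14 took 88.6% ± 0.95 in Nrf2Act-hep and 94.2% ± 0.72 in WT M libraries. In F libraries the share of Cyp4a10 and Cyp4a14 was 95.1% ± 1.34 in Nrf2Act-hep (SD, n = 2) and 95.1% ± 0.35 in WT (SD, n = 3). Over M libraries 6 of the 10 members did not overlap between genotypes, 4 higher and 2 lower in Nrf2Act-hep, but with 3 libraries against 2 so did 32.5% of tested genes.

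The genes whose levels were most like these over the 10 libraries, by Pearson's r on log2(CPM + 1), were each other (r = 0.979) and Y-linked or M-biased genes. For Cyp4a12a the next were Kdm5d, a Y-linked histone demethylase (r = 0.955), and Znrf2, a ubiquitin ligase gene (r = 0.948). For Cyp4a12b they were Kdm5d (r = 0.976) and Ddx3y, a Y-linked RNA helicase (r = 0.955). Kdm5d itself stood at 11.5 to 15.0 CPM in Nrf2Act-hep and 8.79 to 10.9 CPM in WT M libraries. Each r spans the gap between M and F libraries, and none was computed within a letter. Reads shared by Cyp4a12a and Cyp4a12b could alter the r between them, which was not tested.

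The Cyp4f genes, which hydroxylate leukotrienes and related lipids, were low, with little spread between libraries. Cyp4f13 had 21.7, 20.9, 19.6, 26.2 and 19.3 CPM in Nrf2Act-hep livers and 20.3, 15.1, 18.5, 19.2 and 17.4 CPM in WT livers. Cyp4f14 had 43.0, 40.2, 37.8, 39.6 and 34.1 CPM in Nrf2Act-hep livers and 35.1, 32.6, 45.2, 31.4 and 41.0 CPM in WT livers. Cyp4f15 had 46.8, 66.3, 57.9, 48.7 and 57.4 CPM in Nrf2Act-hep livers and 58.1, 54.4, 50.3, 61.0 and 41.8 CPM in WT livers. The genotypes overlapped for each gene, and Cyp4f13 came nearest to separating.

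The log2 fold changes were 0.26 ± 0.16 for Cyp4f13 (limma adjusted p = 0.463), 0.08 ± 0.14 for Cyp4f14 (0.834) and 0.04 ± 0.14 for Cyp4f15 (0.937). The 95% intervals of the fold were 0.948 to 1.51, 0.865 to 1.30 and 0.842 to 1.25 in that order. The 3 genes summed to 115.9 ± 6.69 CPM in Nrf2Act-hep and 108.3 ± 6.62 CPM in WT livers (SD, n = 5 each).

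Cyp4v3, the mouse counterpart of human CYP4V2, a fatty acid hydroxylase mutated in a crystalline retinal dystrophy, had 218.0, 226.6 and 221.6 CPM in M and 161.3 and 153.8 CPM in F libraries of Nrf2Act-hep livers. WT livers had 173.0 and 174.1 CPM in M and 201.9, 156.9 and 146.0 CPM in F libraries. The Nrf2Act-hep M libraries stood above every other library, and the F libraries of the genotypes overlapped. Between genotypes in M libraries alone, 32.5% of tested genes showed no overlap. The genotype log2 fold change was 0.14 ± 0.12 (limma adjusted p = 0.648), that in M libraries 0.35 ± 0.17 (0.356), and the difference between M and F effects 0.43 ± 0.24 (0.769).

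**Figure D4:**
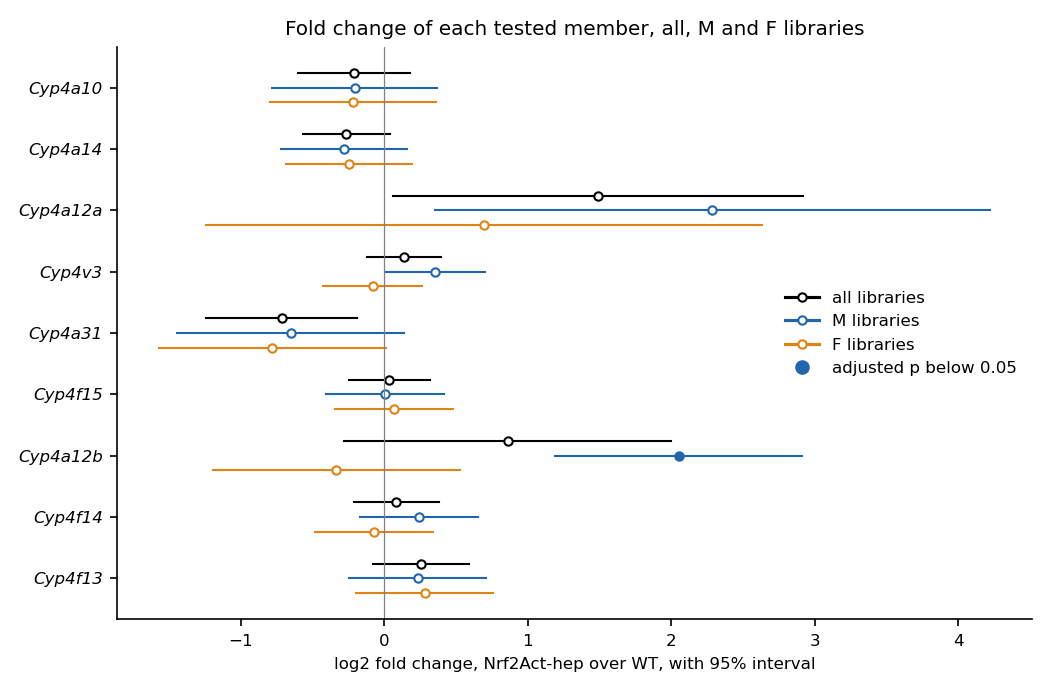
Log2 fold change of Nrf2Act-hep over WT with its 95% interval for the 9 tested members, over all libraries (black), M libraries (blue) and F libraries (orange), from limma. The filled symbol, Cyp4a12b in M libraries at 2.05, is the only one with an adjusted p below 0.05.

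Other Cyp4 genes added little. Of 10 further ones, 5 were listed in the table and only Cyp4b1 was tested, with 9.68 ± 1.72 CPM in Nrf2Act-hep and 10.7 ± 2.63 CPM in WT livers and a log2 difference of -0.16 ± 0.21 (limma adjusted p = 0.766). Cyp4f16, Cyp4f17, Cyp4f18 and Cyp4x1 averaged at most 1.59 CPM in Nrf2Act-hep and 1.34 CPM in WT livers.

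Among proteins that work beside CYP4 enzymes, calls lay in the omega-oxidation partners. None of the 5 electron donors, which pass electrons to microsomal P450s, was called. Their median log2 fold change was 0.21, and Por, the P450 reductase, had 701.3 ± 28.4 CPM in Nrf2Act-hep and 632.9 ± 107.9 CPM in WT livers (SD, n = 5 each; limma adjusted p = 0.42). Of 14 omega-oxidation partners, 1 rose and 2 fell (median -0.06), where 4.64% of all tested genes were called. Aldh1a1, a cytosolic aldehyde dehydrogenase, rose by 0.73 ± 0.16 on the log2 scale (limma adjusted p = 0.00865). Aldh3a2, the fatty aldehyde dehydrogenase that follows omega-hydroxylation, fell to 187.8 ± 28.5 CPM in Nrf2Act-hep livers, against 265.7 ± 26.9 CPM in WT livers (log2 fold change -0.48 ± 0.13, limma adjusted p = 0.0251). Fabp1, which binds fatty acids in the hepatocyte cytosol, fell to 1085 ± 442.1 CPM in Nrf2Act-hep livers, against 1998 ± 469.3 CPM in WT livers (log2 fold change -0.88 ± 0.23, limma adjusted p = 0.0432).

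PPARA's known targets did not move in one direction. None of 10 tested genes for PPARA and its partner receptors and cofactors was called (median -0.15). Of 40 other PPARA targets 5 rose and 3 fell, with a median of 0.01. Cd36, a fatty acid uptake receptor, rose to 282.6 ± 48.4 CPM in Nrf2Act-hep livers, against 96.8 ± 18.4 CPM in WT livers (log2 fold change 1.61 ± 0.12, limma adjusted p = 2.24e-09). The lipid droplet gene Cidec rose by 1.14 ± 0.29 and the mitochondrial carrier gene Ucp2 by 0.90 ± 0.23 (limma adjusted p = 0.0409 and 0.0223), whereas Fabp1, also on this list, fell. Of 10 tested enzymes for eicosanoids and epoxides, Ephx1, the microsomal epoxide hydrolase, rose by 1.21 ± 0.15 (limma adjusted p = 6.77e-06) and Cyp2u1, another fatty acid hydroxylase, fell by 0.70 on the log2 scale (limma adjusted p = 0.0327).

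Among genes known to be male-biased in liver, the class to which Cyp4a12a belongs, more of those called rose than fell. Of 14 tested, which do not include the Cyp4a12 pair, 5 rose and 1 fell between Nrf2Act-hep and WT livers (median 0.28). The fall was that of Cyp2u1, named above, and 4.64% of all tested genes were called. By letter, 11 were higher and 1 was lower in M than in F libraries. Within M libraries 5 rose and none fell, with a median of 0.77, where 1.75% of all tested genes were called higher. Cyp7b1, an oxysterol hydroxylase, rose by 2.46 ± 0.20 on the log2 scale over all libraries (limma adjusted p = 1.25e-08) and by 2.92 ± 0.25 in M libraries. Mup20, a pheromone-binding urinary protein, rose by 1.77 ± 0.26 (limma adjusted p = 0.000239), Mup21 by 1.70 ± 0.41 (0.0373) and the glucuronosyltransferase Ugt2b1 by 1.25 ± 0.13 (3.86e-07). Mup genes are near-copies of each other, so their split is uncertain. The lowest of the list, Serpina1e at -2.83, did not pass (limma adjusted p = 0.0510).

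Of 17 tested female-biased genes, 9 were lower and none was higher in M than in F libraries. Within M libraries 1 rose and 2 fell in Nrf2Act-hep livers (median -0.37), where 2.44% of all tested genes were called. Over all libraries 2 rose and 1 fell (median -0.17), where 4.64% of all tested genes were called. Cyp2a4, which shares reads with near-identical Cyp2a genes, rose by 3.92 ± 0.27, and the sulfotransferase Sult3a1 by 2.13 ± 0.38 (limma adjusted p = 7.16e-06 and 0.00538). Abcd2, a peroxisomal fatty acid transporter, fell to 17.2 ± 8.12 CPM in Nrf2Act-hep livers, against 50.9 ± 10.03 CPM in WT livers (log2 fold change -1.51 ± 0.23, limma adjusted p = 0.0005). Among 29 tested NRF2 targets 22 rose and none fell (median 1.37), led by the carbonyl reductase gene Cbr3 at 7.17 ± 0.22, followed by Gstm3, Abcc4 and Gsta2.

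**Figure D5:**
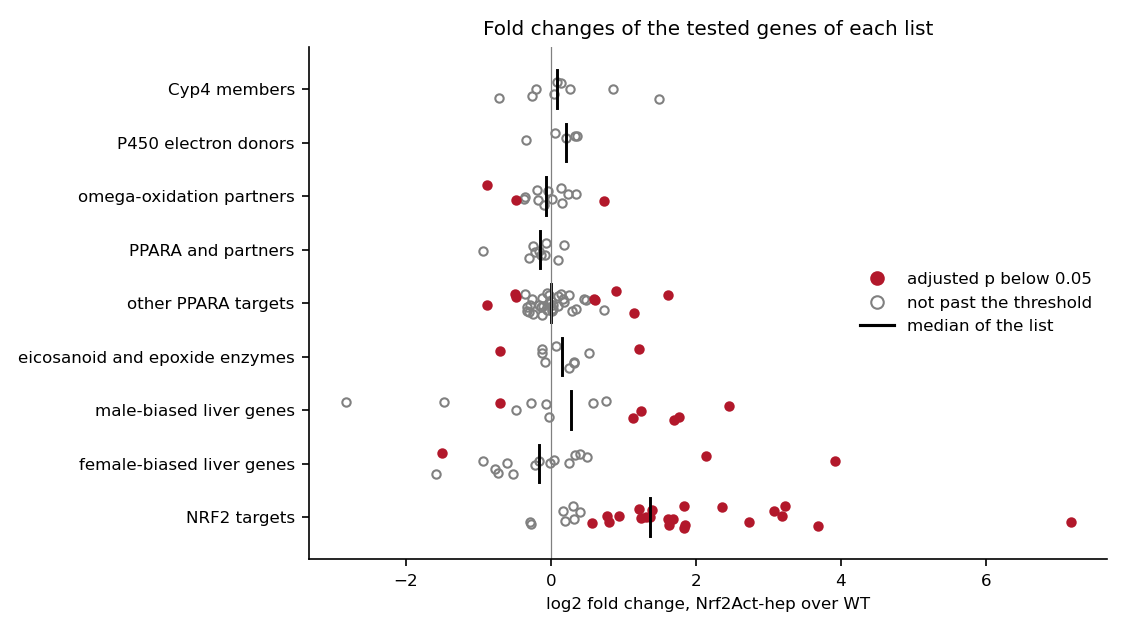
Log2 fold change of Nrf2Act-hep over WT for each tested gene of 9 lists, from limma, with filled symbols for an adjusted p below 0.05 and a bar at the list's median. The Cyp4 members have no filled symbol and a median of 0.08, while 22 of 29 NRF2 targets are filled, all to the right of 0.

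The tissue label was checked against 10 hepatocyte markers, which summed to 34205 to 42871 CPM in Nrf2Act-hep and 45409 to 55021 CPM in WT libraries. These sums did not overlap, and 3 of the 10 markers (Apoa1, Trf and Serpina1a) fell, by 0.77, 0.61 and 0.59 on the log2 scale. They moved in the direction of Cyp4a31, and their part in its lower estimate was not tested. In bulk liver, fewer cells of a type and less RNA per cell cannot be told apart. Of 8 kidney tubule markers 2 were listed in the table. These markers, relevant because Cyp4a genes are also active in kidney, summed to at most 0.46 CPM in Nrf2Act-hep and 1.67 CPM in WT libraries, and 3 listed adipocyte markers to at most 0.43 CPM in Nrf2Act-hep and 2.51 CPM in WT libraries. Of 8 Kupffer cell and macrophage markers 1 fell (Timd4, named after its values were seen), and none of the tested endothelial, stellate, cholangiocyte or lymphocyte and neutrophil markers was called over all libraries. The most abundant genes of these lists were Cd5l, Kdr, Dcn, Spp1 and S100a8. In F libraries S100a8 fell by 2.10 on the log2 scale (limma adjusted p = 0.00408). Among M libraries, where Cyp4a12b rose, 1 stellate marker fell (Col3a1, named after its values were seen) and several sums did not overlap. Stellate markers summed to 377.9 to 431.1 CPM in Nrf2Act-hep and 441.1 to 503.6 CPM in WT M libraries, and Kupffer cell and macrophage markers to 151.9 to 200.6 CPM in Nrf2Act-hep and 211.6 to 239.4 CPM in WT M libraries. Cholangiocyte markers summed to 45.1 to 61.1 CPM in Nrf2Act-hep and 63.5 to 72.8 CPM in WT M libraries. Hepatocyte markers also summed lower, to 34205 to 36133 CPM in Nrf2Act-hep and 45409 to 53524 CPM in WT M libraries. Sums of endothelial and of lymphocyte and neutrophil markers overlapped. Among M libraries 32.5% of tested genes showed no overlap between genotypes. The stellate, Kupffer cell and macrophage, cholangiocyte and hepatocyte sums were all lower where Cyp4a12b was higher. Their part in that result was not tested.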

How the data were processed

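The authors deposited CPM values, reads scaled to a fixed total per library, for 10 liver libraries on GRCm38, per the submitters' processing notes. The sources used here name no aligner, counting tool or annotation. All values (100%) were whole multiples of 1 read within 0.01 read, so reads were recovered. Of 18869 identifiers, 18799 had a GENCODE symbol.

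Genes with at least 10 reads at median depth (4.50 CPM) in 5 libraries and 15 reads in all (8075) were tested with limma 3.58.1 (R 4.3.3; trend, robust) on log2(CPM + 1) of values scaled by TMM (edgeR 4.0.16), which understates changes of low genes. Models had genotype and letter, or their interaction. The threshold was a Benjamini-Hochberg adjusted p of 0.05. The fit was tested on simulated data. Alternatives were edgeR and DESeq2 1.42.0 on recovered reads, the deposited scale, other pseudocounts and filters, no letter term, and each library left out with the same genes kept.

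Members and lists were chosen with earlier results of these data known. Named genes were every member, up to 4 called genes per list by size (the 2 most abundant where fewer than 2 were called), and the 3 most similar genes for called members. Serpina1e, Mup and sex-linked checks, Nqo1, the ratios and the correlations were added after values were seen. Cell type markers were also summed. Reads are not unique molecules, so intervals and floors cover counting error only.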

Additional observations from a re-analysis of the deposited data

Results flagged for a closer look

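In 4 of the 40 sets of 5 libraries examined (10 members in each genotype and each letter), 1 library stood apart from the other 4, a gap that chance gives in about 1 of 20 sets. Cyp4a12a in WT livers was set apart by replicate 2, at 198.4 CPM, although the WT set mixes letters. Cyp4a14 in WT livers had its high value, 5309 CPM, in the same replicate 2. Among F libraries, Cyp4f13 was high in Nrf2Act-hep replicate 9, at 26.2 CPM, and Cyp4v3 in WT replicate 3, at 201.9 CPM. None of the 9 tested members had an M against F difference in its genotype effect that passed the threshold.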

How the results depend on the processing

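Replicate numbers run from 1 to 10 over both genotypes. No paired analysis was possible because the genotypes share no replicate number. Without TMM scaling the median log2 fold change of all tested genes moved from 0.00 to 0.13, and those of the members moved up by similar amounts without a change of sign. With the edgeR test on recovered reads 1 member was called between genotypes, Cyp4a12b at 1.99. Without a filter 18 genes, and with DESeq2 15 genes, had an interaction, against 2 in limma. The unfiltered fit called 1 member there, Cyp4a12b, at 2.42. With a pseudocount of 0.5, 0 members were called in M libraries, and Cyp4a12b stood at 2.07. The cause was not tested for any of these.

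Leaving out 1 library at a time moved the number of genes called between genotypes to between 243 (without WT replicate 1) and 346, and that of members called to between 0 and 1. The member was Cyp4a31, without Nrf2Act-hep replicate 10, within a range of -0.94 to -0.47. Cyp4f15 ranged from -0.027 to 0.095 and turned sign without Nrf2Act-hep replicate 7 or 10 or WT replicate 5. Genes called by letter ranged from 57 (without WT replicate 2) to 147 (without Nrf2Act-hep replicate 9), and by interaction from 1 to 12, with 0 to 1 members (Cyp4a12b, without WT replicate 5). The interaction of Cyp4a12b ranged from 1.96 to 2.82. In M libraries 127 (without Nrf2Act-hep replicate 7) to 218 genes and 0 to 1 members were called, and Cyp4a12b ranged from 1.65 (without WT replicate 1, the call lost) to 2.45. In F libraries 110 (without Nrf2Act-hep replicate 10) to 183 genes and 0 to 1 members were called. The log2 ratio of Cyp4a14 to Cyp4a10 ranged from -0.14 to 0.063, turning sign without WT replicate 5. That of Cyp4a31 to Cyp4a14 ranged from -0.57 to -0.37, with an unadjusted exact p of 0.05 or more without 8 of the 10 libraries in turn. The ratio of Cyp4a31 to Cyp4a10 stayed between -0.57 and -0.47, with exact permutation p of 0.00794 to 0.025 over 11 alternatives. With no overlap between genotypes, each such p is set by how many arrangements the alternative allows. Their range is therefore no measure of stability. The letter call of Cyp4a12a held in all 17 alternatives run. That of Cyp4a12b did too, but a gene that passes the filter through M libraries alone had to differ, so this is no sign of stability. The fits of M or F libraries alone and all alternatives for the ratios were chosen after seeing the data.

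Only 2 WT M libraries bear on the rise of Cyp4a12b, and its F libraries hold at most 2 reads. Depth was lower in WT libraries. How the authors counted reads shared by near-identical Cyp4a transcripts is unknown.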
